A study of Homo sapiens with 8 samples.

Results

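The fibroblast growth factor (FGF) ligands FGF1, FGF2, FGF5, FGF7 and FGF10 and the receptors FGFR1, FGFR2, FGFR3 and FGFR4 were followed in human fibroblasts exposed to the secretions of fibroblasts entering oncogene-induced senescence. The 9 genes were chosen by name, as the rows of the count table that carry these symbols, out of 27696 rows. All 9 were found, and 6 of them, FGF1, FGF2, FGF5, FGF7, FGFR1 and FGFR4, had enough counts to be tested.

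FGFs are secreted or released proteins that bind receptor tyrosine kinases at the cell surface, with heparan sulfate chains as a cofactor. The receptors dimerize, recruit the adaptor FRS2 and start RAS and ERK signaling, which in turn raises feedback inhibitors such as the Sprouty proteins and ERK phosphatases. In the lung, mesenchymal FGF10 and FGF7 are known as signals to the epithelium, whereas FGF2 is known as a growth factor for fibroblasts themselves.

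The recipient cells in every group were IMR90, primary fibroblasts from human embryonic lung, kept for 3 days in conditioned medium. The medium came from IMR90 ER:RAS cells, which carry a RAS oncoprotein fused to an estrogen receptor part that 4-hydroxytamoxifen (4-OHT) switches on. Medium taken at day 0, 4, 7 or 10 of 4-OHT gave the groups D0, D4, D7 and D10, with 2 libraries each from 2 independent experiments, and D0 served as the control for the other 3. In the study's general description of its conditioned medium assays, medium was collected without serum and given a low level of serum before use. That description has a longer incubation than the 3 days given for the sequencing, whose methods do not mention serum. By it the donor medium carried what the ER:RAS cells secreted, and whether the medium also held 4-OHT is not stated. Both cell types derive from 1 fibroblast strain.

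The 8 libraries held between 11708193 and 13395912 counts. All 9 fibroblast markers examined were above 3 counts, and their summed level was 10100 CPM (counts per 1000000 counts of a library, with totals scaled by the TMM method) in D10 replicate 2 against 30300 to 46800 CPM in the other 7 libraries. That library stood apart, so the D10 results of the members are also given without it, and the part this difference played was not tested. Of the markers of other cell types, the epithelial genes CDH1, SFTPC and ESRP1, the endothelial KDR and the leukocyte gene PTPRC did not exceed 3 counts in any library. The summed levels were 45.9 to 94.8 CPM for the epithelial list, mostly KRT8 and KRT18, 42.5 to 122 CPM for the endothelial list, mostly TEK, and 1.16 to 3.1 CPM for the leukocyte list.

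Compared per kilobase of exon, FGFR1 was the most abundant of the 9 in the control medium. FGFR1, the main FGF receptor of mesenchymal cells, had 32.2 ± 2.5 CPM per kilobase (SD, n = 2) at D0. The ligands FGF5, FGF7 and FGF2 followed with 12.9 ± 4.49, 10.3 ± 9.30 and 9.70 ± 2.60 CPM per kilobase, and their libraries overlapped, so their order was not resolved. FGF1 had 2.78 ± 1.02 and FGFR4 0.367 ± 0.0706 CPM per kilobase, each apart from its neighbors in both libraries. Per kilobase of all exon bases the order at the top was not resolved at D10, with FGF7 at 35.5 ± 30.2, FGFR1 at 34.9 ± 4.81 and FGF2 at 19.5 ± 11.1 CPM per kilobase. With the longest transcript in place of all exon bases, the D0 level of FGFR1 became 71.7 and that of FGFR4 0.567 CPM per kilobase, with the same order of the genes. At D10 the means per kilobase of the longest transcript were 77.8 for FGFR1 and 43.2 for FGF7, so the order of these genes at D10 depended on the length used.

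**Figure D1:**
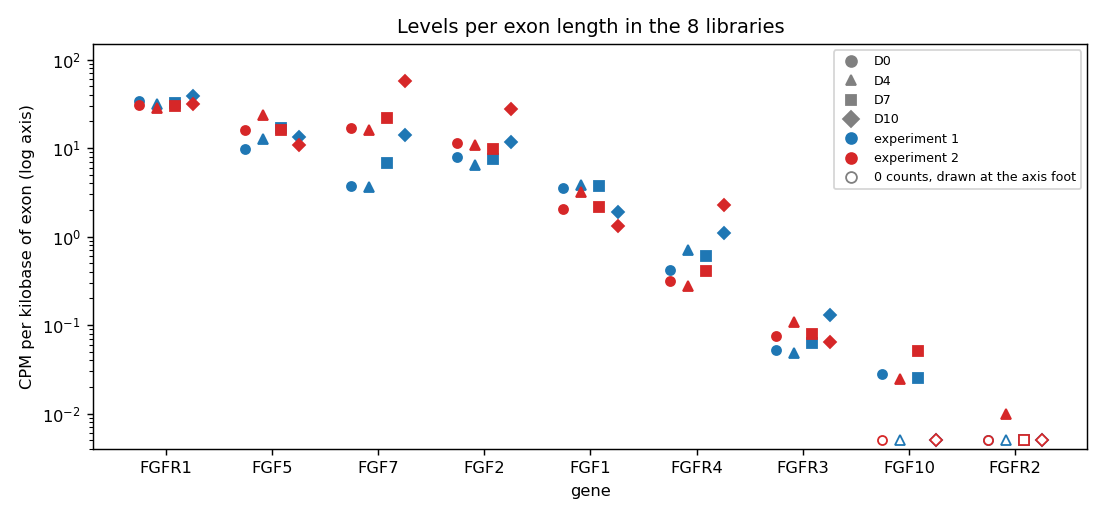
Level of each of the 9 genes in the 8 libraries, in CPM per kilobase of exon on a log axis, with symbols for the medium and colors for the experiment. FGFR1 lay between 28.6 and 38.4 throughout, FGF7 spread from 3.65 to 56.9, and FGF10 and FGFR2 were at 0 in several libraries.

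FGFR3, FGF10 and FGFR2 were at the edge of detection. FGFR3 had 3 and 5 counts in D0 medium, 3 and 7 in D4 medium, 4 and 5 in D7 medium, and 8 and 4 in D10 medium. FGF10, the branching signal of the developing lung, had 1 and 0 counts for D0 cells, 0 and 1 for D4 cells, 1 and 2 for D7 cells and none for D10 cells. FGFR2, whose epithelial splice form is the receptor for FGF7 and FGF10, had 1 count in D4 replicate 2 and none in the other 7 libraries. A count of 0 allows up to 3 counts, or 0.218 to 0.251 CPM depending on the library, for counting error only, and differences between the media were not detectable for these 3 genes at this depth.

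With all 8 libraries, the calls against the control medium among the 6 tested members were at D10. FGF7, FGF2 and FGFR4 were higher at D10 than at D0 in both experiments, FGF1 was lower in both, FGFR1 was within 1.13-fold of its D0 level in both and FGF5 went opposite ways in the experiments. The quasi-likelihood test of edgeR was fitted by medium and adjusted by Benjamini-Hochberg over 13798 genes. None of the 6 passed an adjusted p of 0.05, beside 0.29% of all genes. An unadjusted p under 0.05 was reached by 1 of 6 (FGFR4), beside 1095 of all 13798 genes. With the experiment as a block, which compares each D10 library with the D0 library of its own experiment, 3 of the 6 passed (FGF7, FGF2 and FGFR4, all higher) against 4.99% of all genes (2.54% higher and 2.45% lower). With DESeq2 and no block, 1 passed (FGFR4), against 2.83% of all genes. In these bulk libraries a change in the share of cells that make a transcript and a change in the transcript per cell cannot be told apart.

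**Figure D2:**
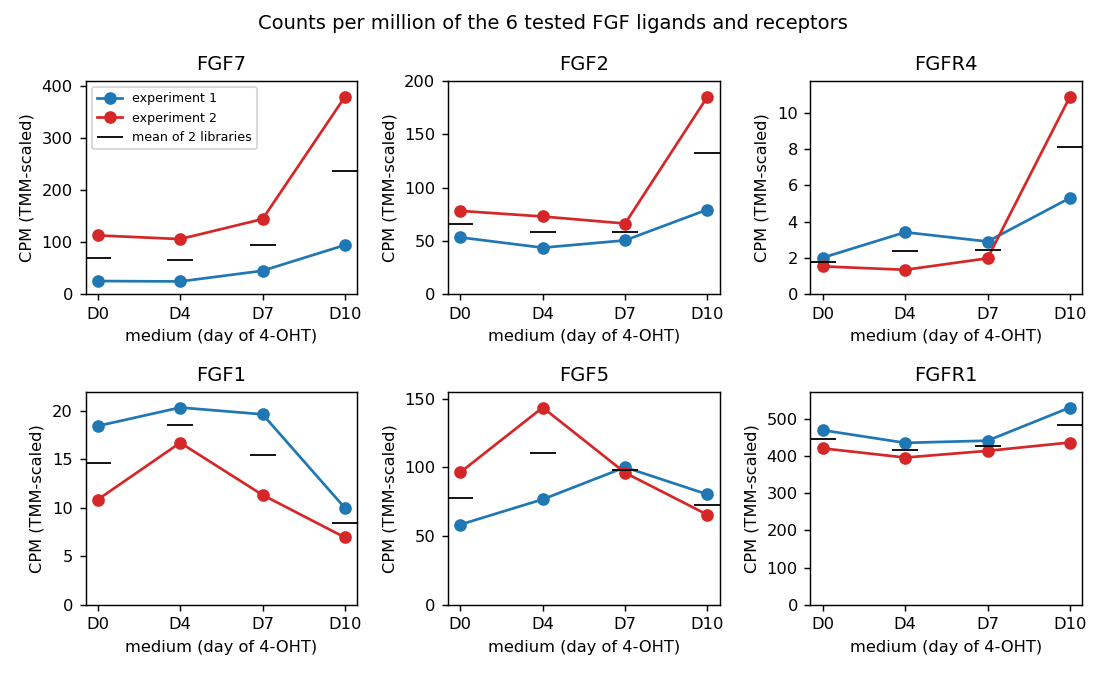
CPM (TMM-scaled) of the 6 tested genes by medium, with 1 line for each experiment and a bar at the mean of the 2 libraries. FGF7 ended at 94.1 and 379 CPM at D10, with experiment 2 above experiment 1 at every medium, whereas FGFR1 stayed between 396 and 531 CPM.

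FGF7 (ENSG00000140285.9), also called keratinocyte growth factor, is a mesenchymal ligand that acts on epithelial cells. It lies at chr15:49423096-49488775 on the plus strand (GRCh38). Experiments 1 and 2 gave 25.1 and 113 CPM in D0 medium, 24.3 and 106 in D4 medium, 44.8 and 144 in D7 medium, and 94.1 and 379 in D10 medium. Each experiment had its highest level at D10, and D10 of experiment 1 lay below D0 of experiment 2, so the groups overlapped. The means were 68.8 ± 61.9 CPM at D0 and 236 ± 201 at D10 (SD, n = 2). Within the experiments FGF7 was 3.74-fold and 3.36-fold higher at D10. The log2 fold change was 1.78 (SE 1.01, edgeR adjusted p = 0.855) by medium alone and 1.82 (SE 0.162, adjusted p = 0.000789) with the block. FGF7 passed in 8 of 8 blocked fits that each left out 1 library, with log2 fold changes from 1.71 to 1.94 and adjusted p up to 0.0129. A fit that leaves out a library keeps 1 library of that medium, which is assumed to vary like those of the other groups, here and for every gene below. Without D10 replicate 2 the blocked value was 1.81, while the value by medium alone was 0.45. In DESeq2 without a block the adjusted p was 1. Of the 50-base words of its exons 9.28% also occur in other annotated transcripts, mainly FGF7 pseudogenes, and the pseudogene with the most of them, FGF7P6, had 0 to 2 counts.

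FGF2 (ENSG00000138685.13), basic FGF, is a ligand without a classical signal peptide that binds heparan sulfate in the matrix. It lies at chr4:122826708-122898236 on the plus strand. It measured 53.3 and 78.2 CPM in D0 medium, 43.6 and 72.9 in D4 medium, 50.5 and 66.3 in D7 medium, and 79.4 and 185 in D10 medium. The D10 libraries were the highest, although experiment 1 at D10 was only just above experiment 2 at D0, and D0, D4 and D7 overlapped. FGF2 was 1.49-fold higher at D10 in experiment 1 and 2.37-fold in experiment 2. The log2 fold change was 1.01 (SE 0.437, edgeR adjusted p = 0.627), and with the block 0.93 (SE 0.197, adjusted p = 0.0311). The blocked call held in 2 of 8 fits with 1 library left out, those that dropped D7 replicate 1 or D10 replicate 1. The adjusted p was 0.117 without D0 replicate 1, 0.406 without D0 replicate 2, 0.0549 and 0.0565 without D4 replicate 1 and 2, 0.0566 without D7 replicate 2 and 0.0751 without D10 replicate 2, where the log2 fold change was 0.58 with the block and 0.27 by medium alone. The opposite-strand gene NUDT6 covers 11.9% of the FGF2 exon bases, and it had 44 to 82 counts against 562 to 2350 for FGF2. The strand setting of the counting is not given in the sources used here, so reads in that stretch are uncertain.

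FGFR4 (ENSG00000160867.14), best known as the receptor of endocrine FGF19 in the liver, had the larger D10 difference of the receptors tested. It lies at chr5:177086886-177098144 on the plus strand. Its counts were low, 24 and 21 for D0 cells, 44 and 18 for D4 cells, 38 and 26 for D7 cells, and 67 and 138 for D10 cells. These corresponded to 2.01 and 1.53 CPM in D0 medium, 3.41 and 1.34 in D4 medium, 2.90 and 1.97 in D7 medium, and 5.31 and 10.9 in D10 medium. Both D10 libraries lay above all the others, and in CPM the D10 libraries were further from each other than those of the other media. FGFR4 was 2.52-fold higher at D10 in experiment 1 and 6.56-fold in experiment 2. The log2 fold change was 2.19 (SE 0.561, edgeR adjusted p = 0.188), 2.22 with the block (SE 0.511, adjusted p = 0.0448) and 2.20 in DESeq2 (adjusted p = 0.0173). The blocked call held without D4 replicate 1, D4 replicate 2 or D10 replicate 1. The blocked adjusted p was 0.157 without D0 replicate 1, 0.363 without D0 replicate 2, 0.0842 and 0.102 without D7 replicate 1 and 2, and 0.105 without D10 replicate 2, where the log2 fold change was 1.22 with the block and 1.58 by medium alone.

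FGF1 (ENSG00000113578.17), acidic FGF, which binds every FGF receptor, went the other way. It lies at chr5:142592178-142698070 on the minus strand. Its level was 18.4 and 10.9 CPM for D0 cells, 20.3 and 16.7 for D4 cells, 19.6 and 11.3 for D7 cells, and 9.98 and 6.94 for D10 cells. Both D10 libraries lay below all the others, and D0, D4 and D7 overlapped. The level at D10 was 0.545 of that at D0 in experiment 1 and 0.645 in experiment 2. FGF1 did not pass against D0, with a log2 fold change of -0.79 (SE 0.382, edgeR adjusted p = 0.725) and -0.77 with the block (SE 0.198, adjusted p = 0.0675). Without D10 replicate 2 the blocked value was -0.81 (adjusted p = 0.0767), and the value by medium alone was -0.55.

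The 3 genes higher at D10 and the lower FGF1 differed from each other in base composition before their RefSeq starts. FGF1 lay between FGF7 and FGF2 in composition, and any link of composition to the changes at D10 was not tested. The sequences just upstream of these genes are shown. They come from RefSeq (GRCh38.p14), 5′ to 3′ on the strand of the gene. Each begins 250 bases before the most upstream RefSeq start and ends at the last base before any annotated exon. Capitals mark matches, on either strand, to GGGCGG (GC box), CCAAT or the NF-kappaB motif. TGANTCA (AP-1) and TATAAA were searched too and had no match in these 4 windows.
FGF7, chr15:49422992-49423095, plus strand: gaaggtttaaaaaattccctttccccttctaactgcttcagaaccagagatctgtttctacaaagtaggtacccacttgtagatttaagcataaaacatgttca
FGF2, chr4:122826581-122826707, plus strand: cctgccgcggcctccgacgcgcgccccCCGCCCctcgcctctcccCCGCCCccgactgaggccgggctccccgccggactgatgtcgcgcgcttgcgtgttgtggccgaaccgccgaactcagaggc
FGFR4, chr5:177086665-177086885, plus strand: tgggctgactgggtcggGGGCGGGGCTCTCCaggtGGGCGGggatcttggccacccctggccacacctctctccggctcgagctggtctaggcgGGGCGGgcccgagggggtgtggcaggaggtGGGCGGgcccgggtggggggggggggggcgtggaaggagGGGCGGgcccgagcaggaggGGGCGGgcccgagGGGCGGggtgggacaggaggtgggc
FGF1, chr5:142698071-142698320, minus strand: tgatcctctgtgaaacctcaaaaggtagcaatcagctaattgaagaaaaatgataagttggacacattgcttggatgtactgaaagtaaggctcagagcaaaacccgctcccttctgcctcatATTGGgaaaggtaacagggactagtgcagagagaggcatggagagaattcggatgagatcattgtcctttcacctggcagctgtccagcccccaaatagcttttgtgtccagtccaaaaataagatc
The 250-base windows held 38.4% G and C bases for FGF7, 75.2% for FGF2, 79.6% for FGFR4 and 44.8% for FGF1. The median was 58.0% over 35116 RefSeq windows. Composition and motifs were counted over all 250 bases. Of these only 104 for FGF7, 127 for FGF2 and 221 for FGFR4 come before any annotated exon. FGFR4 had 7 GC boxes and 1 NF-kappaB match that overlaps the first of them, and FGF2 had 3 GC boxes, 1 of which lies beyond the bases shown. FGF1 had 1 CCAAT match on the reverse strand, and the CCAAT match of FGF7 lies beyond the bases shown. Of all windows, 42.6% held a GC box, 32.0% CCAAT, 9.96% the NF-kappaB motif, 6.57% TGANTCA and 10.7% TATAAA. RefSeq lists 4 starts for FGF1 and 2 for FGFR4, and which start was used in these cells is not known from gene counts. The 3 genes that passed with the block had 250-base windows on both sides of the median composition.

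FGFR1 and FGF5 did not pass at D10 in any of the 3 fits. FGFR1 (ENSG00000077782.19, chr8:38400215-38468834, minus strand) had 470 and 421 CPM in D0 medium, 436 and 396 in D4 medium, 442 and 414 in D7 medium, and 531 and 437 in D10 medium. All groups but D10 lay within 396 to 470 CPM, and D10 overlapped D0. Its log2 fold change at D10 was 0.12 (SE 0.232, edgeR adjusted p = 0.998, with the block 0.763), and without D10 replicate 2 it was 0.25, or 0.19 with the block. FGF5 (ENSG00000138675.16, chr4:80266599-80336680, plus strand), a ligand known as a brake on hair growth, had 58.4 and 96.5 CPM for D0 cells, 76.8 and 144 for D4 cells, 100.1 and 96.1 for D7 cells, and 80.4 and 65.6 for D10 cells. It was higher at D10 than at D0 in experiment 1 (log2 difference 0.46) and lower in experiment 2 (-0.56), and the fitted value was -0.09 (adjusted p = 0.998, with the block 0.967). Without D10 replicate 2 the sign turned, to 0.05, or 0.36 with the block.

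**Figure D3:**
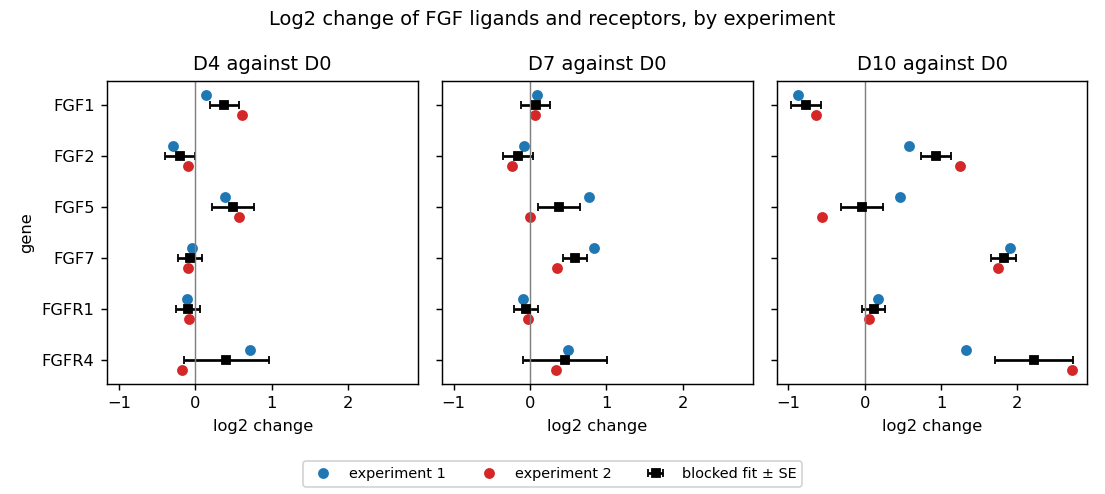
Log2 change from D0 in each experiment (dots) and in the fit with the experiment as a block (squares, bars are the SE) for the 6 tested genes. At D4 and D7 the blocked values lay between -0.20 and 0.59, and at D10 those of FGF7, FGF2 and FGFR4 were 1.82, 0.93 and 2.22.

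With all 8 libraries, the D4 and D7 media gave no call among the 6 tested members. At D4 the log2 fold changes ran from -0.17 (FGF2) to 0.51 (FGF5). There 0 of 6 passed in edgeR by medium, with the block or in DESeq2, against 0%, 0.275% and 0.341% of all genes. An unadjusted p under 0.05 by medium was reached by 0 of 6, beside 409 of all 13798 genes. At D7 the log2 fold changes ran from -0.17 (FGF2) to 0.46 (FGFR4). Again 0 of 6 passed in the 3 fits, against 0%, 1.25% and 0.848% of all genes. An unadjusted p under 0.05 by medium was reached by 0 of 6, beside 599 of all 13798 genes. FGF7 was the nearest at D7, with 0.59 in the blocked fit (SE 0.16, unadjusted p = 0.00532, adjusted p = 0.168) and the same direction in both experiments. FGF7 at D7 passed in the blocked fits without D10 replicate 1 (adjusted p = 0.0306) or D10 replicate 2 (0.0363).

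Since D4, D7 and D10 share the D0 libraries, D10 was also compared with D4 directly. By medium 0 of 6 passed in edgeR and 0 in DESeq2, against 0.00725% and 1.14% of all genes. An unadjusted p under 0.05 in edgeR by medium was reached by 3 of 6, beside 786 of all 13798 genes. With the block 3 of 6 passed, 2 higher and 1 lower, against 2.55% of all genes (1.72% higher and 0.833% lower). FGF7 was higher at D10 than at D4 (log2 1.86, edgeR adjusted p = 0.961, with the block 1.89 and 0.00133), by 3.85-fold and 3.58-fold in the experiments. FGF2 was higher as well (1.18, adjusted p = 0.752, with the block 1.13 and 0.0262). FGF1 was lower (-1.13, adjusted p = 0.671, with the block -1.15 and 0.0238), and at D10 it was at 0.494 and 0.421 of its D4 level. The calls for FGF1 and FGF2 were lost without D4 replicate 1 (0.0957 and 0.163), without D4 replicate 2 (0.15 and 0.157) and without D7 replicate 2 (0.0585 for both), whereas FGF7 passed in 8 of 8. For FGFR4 the value was 1.77 (edgeR adjusted p = 0.564, 0.106 in the blocked fit), and the blocked adjusted p fell to 0.000142 once D10 replicate 1 was left out. FGF5 likewise passed only there (0.0154).

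The experiments themselves differed in the FGF genes. FGF7 was 3.98-fold higher in experiment 2 than in experiment 1 (log2 1.99, SE 0.116, edgeR adjusted p = 0.000151 with the medium in the model), with log2 differences of 2.16 in D0 medium, 2.11 in D4 medium, 1.68 in D7 medium and 2.01 in D10 medium. FGF2 was 1.66-fold higher in experiment 2 (adjusted p = 0.00621), and FGF1 was lower, at 0.664 of its level in experiment 1 (adjusted p = 0.0127). In all, 3 of 6 passed, beside 34.8% of all genes (18.6% higher and 16.2% lower in experiment 2), so such differences were common across the whole table. The difference for FGF7 between the experiments (1.99) was of about the size of its difference between D10 and D0 (1.82). FGF5 (0.32, adjusted p = 0.235), FGFR1 (-0.17, 0.265) and FGFR4 (-0.17, 0.739) did not pass. The labels give no date, cell passage or batch of medium, so such factors and the experiment cannot be told apart. FGF1 lost its call without both D0 libraries (adjusted p = 0.079) and without both D7 libraries (0.0618), and without both D10 libraries FGF5 (0.53, 0.0159) and FGFR4 (-0.77, 0.0475) passed too.

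With the mean of each experiment subtracted, the members that were higher at D10 varied together over the 8 libraries. Pearson's r was 0.872 for FGF2 with FGF7, 0.897 for FGF2 with FGFR4 and 0.85 for FGF7 with FGFR4. FGF1 ran against them, with -0.849 for FGF2, -0.885 for FGF7 and -0.799 for FGFR4, and against FGFR1 with -0.899. FGF5 had r between -0.57 and 0.585 with the other members. These points come from the same libraries and share the D10 shift. The genes whose pattern was most like that of FGFR4 over the 8 libraries were ENOSF1 (r = 0.993), ANKZF1 (0.992) and PTPRU (0.99). Their mean levels at D0 and D10 were 9.49 and 18.8 CPM for ENOSF1, 18.6 and 25.2 for ANKZF1 and 17.7 and 30.8 for PTPRU. For FGFR1 they were FAM135A (0.988), CDK8 (0.964) and DPP4 (0.959), a surface peptidase whose mean was 159 CPM at D0, 99 at D4 and 218 at D10.

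The other genes of the FGF pathway were described from 5 lists of 77 genes, 50 of them tested. By medium 0 of 50 passed in edgeR at D4, D7 and D10, with 13, 14 and 13 at an unadjusted p under 0.05, beside 409, 599 and 1095 of all 13798 genes. In DESeq2 3, 6 and 7 passed, beside 0.341%, 0.848% and 2.83% of all genes. With the block 3, 8 and 11 passed, beside 0.275%, 1.25% and 4.99% of all genes, and at D10 7 were higher and 4 lower.

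Of the 17 further genes of the FGF family only FGF9 could be tested, and 11 others in the table had at most 7 counts. FGF9, a ligand known from the epithelium and mesothelium of the developing lung, had 9.72 and 16.3 CPM in D0 medium, 2.33 and 3.06 in D4 medium, 1.53 and 3.11 in D7 medium, and 1.35 and 2.52 in D10 medium. Both D0 libraries lay above all the others. FGF9 was lower at D10 by a log2 fold change of -2.74 (edgeR adjusted p = 0.0779, with the block 0.00125, in DESeq2 9.04e-05), and it passed in 8 of 8 blocked fits with 1 library left out. At D4 its log2 fold change was -2.27 (edgeR adjusted p = 0.757, with the block 0.018, in DESeq2 0.0155), and at D7 it was -2.48 (0.307, with the block 0.00667, in DESeq2 0.00158). The blocked call at D4 held in 2 of 8 blocked fits, those without D10 replicate 1 or D10 replicate 2, and the adjusted p reached 0.279 in the others. At D7 it was lost without D0 replicate 2 (0.112) and without D7 replicate 1 or 2 (0.0592 and 0.187). FGF7, FGF2 and FGFR4 gave no call at D4, and whether they differed from FGF9 there was not tested.

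Among the binding proteins and coreceptors, 5 of 11 were tested, and with the block 1 was called lower at each of D4, D7 and D10. Of all 13798 genes, 26, 102 and 338 were called lower with the block at these media. The gene called was FLRT2 each time, with log2 fold changes of -1.31 at D4 and -1.30 at D7. The edgeR adjusted p with the block was 0.0239 and 0.0156 there, and it did not pass by medium. FLRT2, a membrane protein that binds FGF receptors, had -0.84 at D10 (edgeR adjusted p = 0.834, with the block 0.0191), and the blocked call was lost without D0 replicate 1 (0.207) or D0 replicate 2 (0.108). At D10 IL17RD, a feedback inhibitor at the receptor, had -1.25 (edgeR adjusted p = 0.565, with the block 0.165). FGFBP3, a carrier that releases FGFs from the matrix, had 0.17 there. Of the heparan sulfate carriers and enzymes, 19 of 24 were tested. With the block 2 were called lower at D10, the syndecans SDC2 and SDC4, beside 2.45% of all genes. Both also passed in DESeq2 without a block (adjusted p = 0.000626 and 0.00355), where 2.83% of all genes passed in either direction. SDC2 was lower earlier too, with -0.79 at D4 (edgeR adjusted p with the block 0.0516) and -1.03 at D7 (0.0117). SDC2 had -1.03 (edgeR adjusted p = 0.0753, 0.00333 in the blocked fit, which became 0.0675 without D0 replicate 2). SDC4 had -1.11 (0.134, 0.00748 in the blocked fit, which became 0.0654 and 0.128 without D0 replicate 1 and 2). SULF1, which trims sulfate from heparan sulfate, had -2.15 (0.419, with the block 0.14), with -0.71 in experiment 1 and -3.67 in experiment 2. The median of this list at D10 was -0.36 on the log2 scale, beside 0.004 for all genes. The 11 receptor adaptors, FRS2 and its partners, gave 0 calls at D10 in edgeR, with the block or in DESeq2, with 0 at an unadjusted p under 0.05. The named ones were FRS3 (0.54), CBL (0.36) and GAB1 (-0.42). FRS3 went opposite ways in the experiments (-0.08 and 0.92), and without D10 replicate 2 its value was -0.13 by medium and -0.20 with the block.

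The feedback and target genes of FGF and ERK signaling were the list with the most calls. All 14 were tested, and with the block 7 passed at D10, all higher, beside 4.99% of all genes (2.54% higher). By medium 0 of the 14 passed there in edgeR and 4 in DESeq2, all higher, beside 0.29% and 2.83% of all genes. Most D10 calls with the block over the 5 lists were lost when either D0 library was left out, as given at the end. With the block 5 were called higher at D7 and 1 at D4, beside 1.25% and 0.275% of all genes in either direction. Their medians on the log2 scale were 0.59 for D4, 0.86 for D7 and 0.80 for D10, beside 0.009, 0 and 0.004 for all genes. At D10, 10 of 14 (71.4%) were higher in both experiments, beside 31.1% of all genes. DUSP6, an ERK phosphatase, had 104 and 111 CPM in D0 medium, 188 and 188 in D4 medium, 201 and 196 in D7 medium, and 223 and 217 in D10 medium. Its log2 fold change at D10 was 1.03 (edgeR adjusted p = 0.0852, with the block 0.00448), with blocked adjusted p of 0.0938 and 0.103 without D0 replicate 1 and 2. DUSP4, a phosphatase of the same family, had 1.85 (edgeR adjusted p = 0.0834, 0.00442 in the blocked fit, which became 0.0708 without D0 replicate 2). ETV4, an ETS transcription factor downstream of FGF receptors, had 1.42 (0.0947, 0.00783 in the blocked fit, which became 0.142 without D0 replicate 2). The list answers to ERK signaling from many kinds of receptor, and ERK activity was not measured here. FGF9, SDC2, SDC4, FLRT2, DUSP6, DUSP4 and ETV4 each passed with the block without D10 replicate 2 (adjusted p from 0.000393 to 0.00603), where D10 was a single library whose spread was taken from the other groups.

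**Figure D4:**
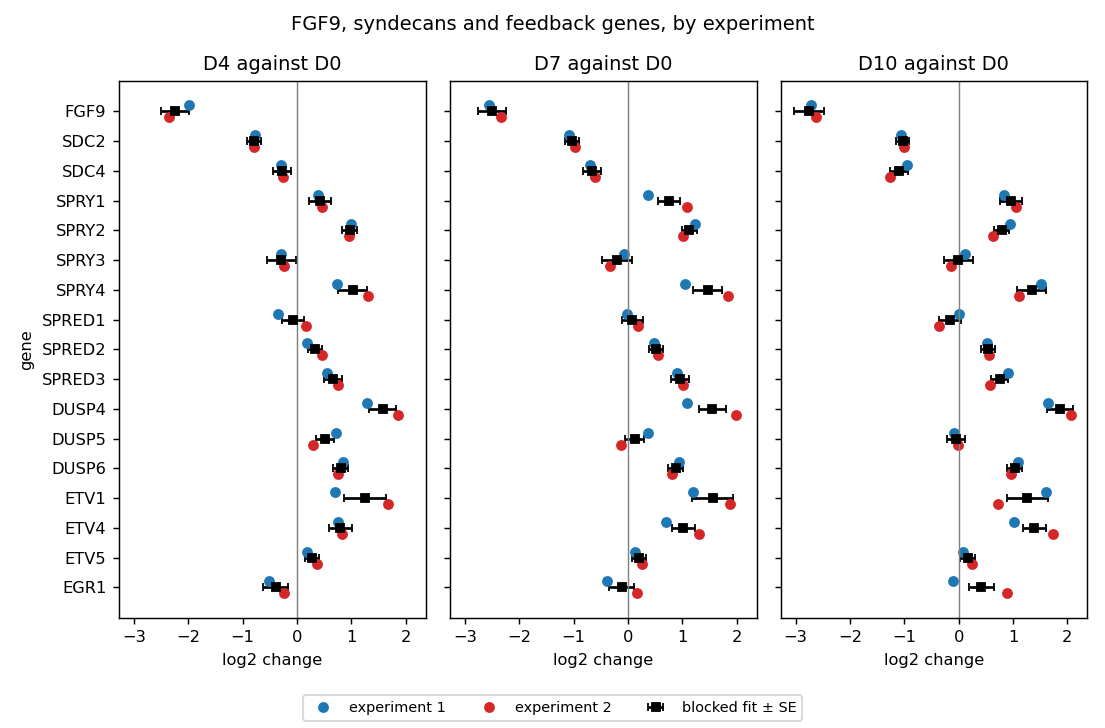
Log2 change from D0 by experiment (dots) and in the fit with the experiment as a block (squares, bars are the SE) for FGF9, SDC2, SDC4 and the 14 feedback and target genes. FGF9 lay between -2.72 and -1.99 in every experiment and medium, and DUSP4, DUSP6 and ETV4 lay above 0 in both experiments at each medium.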

How the data were processed

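Poly(A) RNA of IMR90 cells was sequenced as stranded libraries. The submitters' processing notes name STAR 2.5 and DESeq2 with GRCh38. The counting tool and its strand setting are not given in the sources used here. Whole-number counts for each gene and library were deposited by the authors, beside 8 columns of RPM values (reads scaled to a fixed library size) that were not used here.

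Samples were grouped by the day of the medium, and the replicate number was taken as the experiment. Its use as a block rests on the labels (2 independent experiments) and on deviations from the group means that correlated across genes in all 6 pairs of groups (r 0.418 to 0.722). The edgeR 4.0.16 quasi-likelihood test (R 4.3.3) was run on all 8 libraries after filterByExpr (13798 genes kept) and TMM scaling, with Benjamini-Hochberg adjustment and a threshold of 0.05. The common dispersion was 0.0792, or 0.0242 with the block. DESeq2 1.42.0 was an alternative. The scripts were tested on simulated data. With 2 libraries a group, an exact permutation test without pairing cannot go below p = 0.333. The p-values of the fits rest on the spread between these libraries, estimated with information shared across genes. Positions come from GENCODE 29, which held 27588 (99.6%) of the identifiers. A 50-base word search found shared exon sequence, levels per length used all exon bases, and log2 differences within an experiment used a prior count of 2. The NF-kappaB motif was the 10-letter consensus with ambiguous bases, searched on both strands.

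The named genes were the 9 members and, from each pathway list, up to 3 genes that passed at D10 or, as none did, had the lowest p. The genes most like FGFR4 and FGFR1, the members with the lowest p and the highest CPM, were the 3 with the highest r. Other genes in the text are overlapping genes and markers. The members and lists were chosen with earlier results of these data known.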

Additional observations from a re-analysis of the deposited data

Results flagged for a closer look

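FGF1, FGF2, FGF7 and FGFR1 were drawn out because both experiments moved one way at D4 and the other way at D10, relative to D0. The D4 log2 changes in experiments 1 and 2 were 0.14 and 0.62 for FGF1 and -0.29 and -0.10 for FGF2. They were -0.04 and -0.09 for FGF7 and -0.11 and -0.09 for FGFR1. With all 8 libraries none of these genes passed at D4 in any fit. The genes were picked on these same libraries, so the D10 against D4 values do not test a change of direction. The direct difference between D10 and D4 was a log2 fold change of -1.13 for FGF1, 1.18 for FGF2, 1.86 for FGF7 and 0.22 for FGFR1. In edgeR by medium the adjusted p was 0.671, 0.752, 0.961 and 0.974. With the block it was 0.0238, 0.0262, 0.00133 and 0.492, so FGFR1 did not pass in either fit. SDC4, a syndecan, was drawn out by the test of the difference with the block, with -0.84 (adjusted p = 0.0404, and 0.55 by medium). The block call for SDC4 held in 1 of 8 fits with 1 library left out, the one without D10 replicate 1 (0.00156), and its adjusted p without any other single library lay between 0.0725 and 0.18.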

How the results depend on the processing

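No called value reversed. Among the FGF members, the count called at D10 against D0 was 0 by medium, 1 with DESeq2, 1 without a filter, 3 with the replicate block and 1 to 3 with the replicate block and 1 library left out, a setting added after the data were seen. Against D4 it was 0, then 3 with the replicate block and 1 to 5 with a library left out of it. At D7 the replicate block with a D10 library left out gave 1. Between experiments it was 3, then 5 without both D10 libraries and fewer without both D0 or both D7 libraries, where FGF1 lost its call. For the pathway genes by medium, DESeq2 gave 3, 6 and 7 calls at D4, D7 and D10, no filter 1, 3 and 5, and the replicate block 3, 8 and 11. With the replicate block and 1 library left out they ranged from 0 to 15 at D4 (14 without D10 replicate 2) and from 0 to 16 at D7. At D10 they were 4 and 1 without D0 replicate 1 and 2, 12 and 10 without D4, 10 and 10 without D7, and 20 and 13 without D10 replicate 1 and 2. Against D4 the full block gave 1, and leaving out a library 0 to 11. DESeq2's size factors, at least 10 counts in every library, only the groups compared, and leaving out 1 library by medium left the 0 calls by medium as they were. For the members, the block changed no call but those given beside each gene. The 2 libraries a group, and at most 138 counts for FGFR4, limit the precision.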
